A study of Mus musculus with 4 samples.

Results

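The genes examined here are the 5 subunit genes of the transcription factor NF-kappaB (Nfkb1, Nfkb2, Rel, Rela and Relb) and 5 genes that NF-kappaB is known to induce and whose products act back on it (Nfkbia, Nfkbie, Nfkbiz, Bcl3 and Tnfaip3). They were chosen by gene symbol, and all 10 had values in every library, out of 17823 genes with values. The libraries are 4 RNA-seq libraries of mouse blood, Ctrl 1 and Ctrl 3 from controls and Nar 1 and Nar 3 from mice given naringenin (Nar), a plant flavonoid. All mice were on the C57BL/6 background, labelled adult and, by the study's methods, 12 months old. Nar-treated mice received 20 mg/kg through the tail vein, and controls the same volume of phosphate-buffered saline, with 30 days of treatment in the labels of both groups. Nothing says whether a library is 1 animal or a pool, so p-values measure only the spread between these libraries, which may be technical.

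NF-kappaB is a dimer of subunits that waits in the cytoplasm, held there by inhibitor proteins of the IkappaB family. Signals from tumour necrosis factor, interleukin-1 or microbial products lead to the destruction of IkappaB, and the freed dimer enters the nucleus and turns on genes of inflammation. Among these are the genes of its own inhibitors, which close the loop and end the response. In blood, neutrophils and monocytes use it for their fast response to infection, and lymphocytes for survival and activation.

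The promoters can be read for the sequence that NF-kappaB is known to bind. RefSeq promoter sequences (GRCm38.p6, from 250 bases before to 50 after a transcription start) were given for 7 of the 10 genes, and 6 of these 7 hold the NF-kappaB consensus, a motif of 10 bases searched on both strands. Over all 27025 genes of the table, 5.14% hold it, and over all 32851 windows 4.51% do. Rela is the gene of the 7 without a match. Nfkb1, Relb and Nfkbiz were not in the table. A match is a likeness of letters and not a measured binding site. The following sequences, 5′ to 3′ on the strand of the gene with each consensus match in capitals, are shown because feedback by NF-kappaB on its own genes is known to act through sites of this kind. Overlapping matches were merged.

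Nfkbia, chr12:55492648-55492767, minus strand: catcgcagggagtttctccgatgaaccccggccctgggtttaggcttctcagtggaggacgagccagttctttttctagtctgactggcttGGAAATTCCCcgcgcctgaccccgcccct
Nfkbie, chr17:45555580-45555699, plus strand: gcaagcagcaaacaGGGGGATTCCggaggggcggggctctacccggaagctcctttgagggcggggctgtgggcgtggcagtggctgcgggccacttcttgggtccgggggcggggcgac
Tnfaip3, chr10:19015516-19015545, minus strand: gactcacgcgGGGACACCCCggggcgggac
Tnfaip3, chr10:19015403-19015432, minus strand: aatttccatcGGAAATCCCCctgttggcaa
Bcl3, chr7:19822734-19822763, minus strand: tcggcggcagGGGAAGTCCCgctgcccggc
Nfkb2, chr19:46304688-46304717, plus strand: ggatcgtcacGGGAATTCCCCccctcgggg
Nfkb2, chr19:46304716-46304745, plus strand: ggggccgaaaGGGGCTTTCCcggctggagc
Nfkb2, chr19:46305449-46305478, plus strand: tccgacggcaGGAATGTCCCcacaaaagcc
Nfkb2, chr19:46305695-46305724, plus strand: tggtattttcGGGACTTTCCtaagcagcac
Rel, chr11:23771042-23771071, minus strand: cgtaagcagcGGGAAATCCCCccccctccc

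For Nfkbia and Nfkbie the 120 bases before the start are shown, and the matches begin at positions -29 and -106 from it. For the other genes 30 bases around each match are shown. The Tnfaip3 matches begin at -125 and -12, the first pair of Nfkb2 at -39 and -11 from the first of its starts, the other pair at -236 and 11 from the second, and that of Rel at -92. The Bcl3 match lies from base 3 to base 12 after the start, inside the transcript. By the gene spans of GENCODE M21, the Tnfaip3 and Nfkb2 sites also lie inside the annotated gene, which begins further upstream there, while those of Nfkbia, Nfkbie and Rel lie outside it. Of the 4 inhibitor genes with a sequence all 4 hold a match, and so do 2 of the 3 subunit genes.

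On the deposited scale Nar-treated blood had lower values of most of these genes, and the inhibitor genes differed more among themselves than the subunit genes. The ratio of the control to the Nar mean was 13.3 for Nfkbiz, 5.61 for Tnfaip3, 4.46 for Bcl3, 2.83 for Nfkbia and 1.11 for Nfkbie. For the subunits it ran from 2.09 for Nfkb1, 2.11 for Nfkb2 and 2.31 for Rela to 3.12 for Relb and 3.36 for Rel. Scaling to genes of white cells moved the median over all tested genes from -1.07 to 0.42, and with it Nfkb1, Nfkb2, Rela, Relb, Nfkbia and Nfkbie had values above 0 (log2 fold changes of 0.02 to 1.18). Nfkbie was not tested, and the others did not pass. In 8 of the 10 genes the groups did not overlap and Nar-treated blood was the lower, as in 78.3% of the 5339 tested genes and 52.7% of the 16382 genes with a value above 0. In 0 of the 10 it was the higher without overlap (1.27% of tested genes), and Nfkb2 and Nfkbie overlapped. All values are FPKM as deposited (fragments per kilobase of transcript, scaled to the mapped fragments of the library), which sets genes of different length on one scale. They are shares of the RNA in a library, so fewer cells of a type and less RNA per cell cannot be told apart.

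Differences were computed on log2(FPKM + 0.1), which understates changes of low genes, as Nar minus control. A limma fit covered the 5339 genes whose mean FPKM reached 0.5, and a gene was called at a Benjamini-Hochberg adjusted p under 0.05. The typical gene was itself lower in Nar-treated blood, with a median log2 fold change of -1.07 over the tested genes, and 39.6% of tested genes were called lower. Haemoglobin genes took 92.6% to 96.4% of the summed FPKM, and a value above 0 was listed for 13632 to 14378 genes in a library. Read numbers are not known, and counting error could not be estimated.

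**Figure D1:**
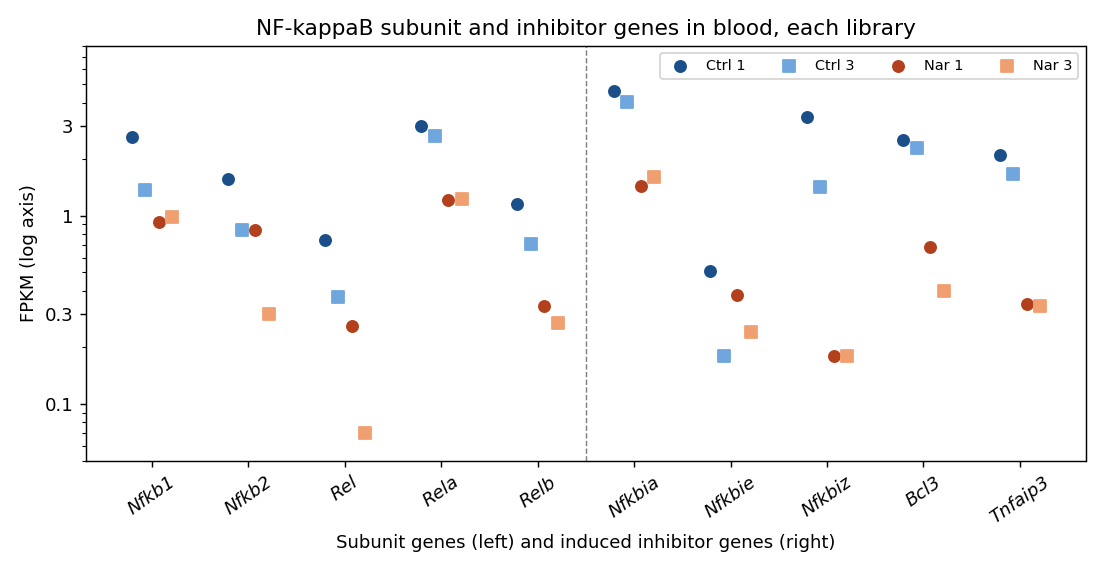
FPKM (log axis) of the 5 subunit genes, left of the dashed line, and the 5 inhibitor genes, right of it, with 1 point for each library. Ctrl 1 (dark blue) lies above Ctrl 3 (light blue) in all 10 genes, and both Nar libraries (red, orange) lie below both controls in all genes but Nfkb2 and Nfkbie on this deposited scale. Scaling to white cell genes moves the median log2 difference over tested genes from -1.07 to 0.42 and puts Nfkb1, Nfkb2, Rela, Relb, Nfkbia and Nfkbie above 0.

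Rela (GRCm38 chr19:5637483-5648130) encodes p65, the subunit that carries the activation domain of the most common dimer. It had 3.01 and 2.66 FPKM in Ctrl 1 and Ctrl 3, against 1.22 and 1.23 in Nar 1 and Nar 3. The groups were well apart and the libraries of each group close together. Its log2 fold change was -1.14 (standard error 0.363, limma adjusted p = 0.0380), close to the median of all tested genes.

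Relb (chr7:19606217-19629438) encodes the partner of p52 in the slower, non-canonical arm of the pathway. It had 1.16 and 0.71 FPKM in Ctrl 1 and Ctrl 3, against 0.33 and 0.27 in Nar 1 and Nar 3. The groups did not overlap. As a log2 fold change this was -1.34 (standard error 0.414, limma adjusted p = 0.0354).

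Nfkb1 (chr3:135584655-135691547) encodes p105, the precursor of p50. It had 2.61 and 1.38 FPKM in Ctrl 1 and Ctrl 3, against 0.93 and 0.98 in Nar 1 and Nar 3. Both Nar libraries were lower than both controls, but the controls differed from each other by more than Ctrl 3 differed from the Nar libraries. The fitted log2 fold change was -0.93 with a limma 95% interval from -1.82 to -0.03, and it did not pass after adjustment (limma adjusted p = 0.0816). Without Ctrl 1 it was -0.49.

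Nfkb2 (chr19:46304320-46312385) encodes p100, the precursor of p52, which also holds Relb in the cytoplasm. It had 1.56 and 0.84 FPKM in Ctrl 1 and Ctrl 3, against 0.84 and 0.30 in Nar 1 and Nar 3. Ctrl 3 and Nar 1 had the same value, so the groups met. The log2 fold change was -1.03 (limma 95% interval -2.13 to 0.08, adjusted p = 0.105), and it was -0.62 without Ctrl 1, -1.64 without Nar 1 and -0.41 without Nar 3.

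Rel (chr11:23736847-23770970) encodes c-Rel, a subunit used mostly by lymphocytes and other blood cells. It had 0.74 and 0.37 FPKM in Ctrl 1 and Ctrl 3, against 0.26 and 0.07 in Nar 1 and Nar 3. The groups did not overlap, but Nar 1 was nearer to Ctrl 3 than to Nar 3. With a mean of 0.36 FPKM Rel was below the limit for the test, and its log2 fold change of -1.34 is given as a description. At this level rounding to 2 decimals and the added 0.1 weigh on the value, which was -1.86 with 0.01 added, -0.41 with 1 added and -0.80 without Nar 3.

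Over the 5 subunits the median log2 fold change was -1.14, beside -1.07 for all tested genes, and on the white cell scale the values were 0.40 and 0.42. Of the 4 that could be tested, 2 were called lower and 0 higher, near the 39.6% and 0.187% of all tested genes, and 3 had an unadjusted limma p under 0.05. The subunits thus lay near the middle of the tested genes, Relb at percentile 28.7 of their log2 fold changes, Rela at 43.9, Nfkb2 at 54.0 and Nfkb1 at 62.7.

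Nfkbia (chr12:55489410-55492647) encodes IkappaB-alpha, the inhibitor that is degraded and resynthesised in each round of signalling. It had the highest level of the 10 genes in each library, with 4.60 and 4.01 FPKM in Ctrl 1 and Ctrl 3, against 1.44 and 1.60 in Nar 1 and Nar 3. The libraries of a group were close together and the groups far apart. Its log2 fold change was -1.44 (standard error 0.389, limma adjusted p = 0.0256).

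Nfkbiz (chr16:55811375-55838899) encodes IkappaB-zeta, a nuclear cofactor that lets NF-kappaB reach a set of secondary response genes, and it is thus not a plain inhibitor. It had 3.37 and 1.43 FPKM in Ctrl 1 and Ctrl 3, against 0.18 in each Nar library. Among the 5 inhibitors it was the second in Ctrl 1, the fourth in Ctrl 3 and the lowest in both Nar libraries. As a log2 fold change this was -3.04 (standard error 0.446, limma 95% interval -4.05 to -2.03, adjusted p = 0.00488), at percentile 1.44 of the tested genes.

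Tnfaip3 (chr10:19000910-19015657) encodes A20, a ubiquitin-editing enzyme that shuts off signalling from the tumour necrosis factor receptor and Toll-like receptors. It had 2.10 and 1.66 FPKM in Ctrl 1 and Ctrl 3, against 0.34 and 0.33 in Nar 1 and Nar 3. The 2 Nar libraries were almost equal, and the difference between groups was far larger than the spread within them. The fitted log2 fold change was -2.18 (standard error 0.347, limma adjusted p = 0.00570), at percentile 5.71.

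Bcl3 (chr7:19808462-19822770) encodes a nuclear IkappaB protein that binds p50 and p52 dimers and can repress or activate their targets. It had 2.53 and 2.29 FPKM in Ctrl 1 and Ctrl 3, against 0.68 and 0.40 in Nar 1 and Nar 3. The groups did not overlap, and the control libraries differed little. The log2 fold change was -2.01 (standard error 0.368, limma adjusted p = 0.00899), at percentile 7.08. The study's report of lower tumour necrosis factor pathway genes rests on this same RNA-seq. The direction of Bcl3 and Tnfaip3 is thus not independent evidence for it.

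Nfkbie (chr17:45555703-45563169) encodes IkappaB-epsilon, a slower cytoplasmic inhibitor that acts mainly on Rela and Rel dimers. It had 0.51 and 0.18 FPKM in Ctrl 1 and Ctrl 3, against 0.38 and 0.24 in Nar 1 and Nar 3. Both Nar libraries lay between the 2 controls, so the groups overlapped. Its mean of 0.328 FPKM was below the limit for the test, and the log2 fold change of -0.03 is a description that was 0.53 without Ctrl 1 and -0.59 without Ctrl 3.

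**Figure D2:**
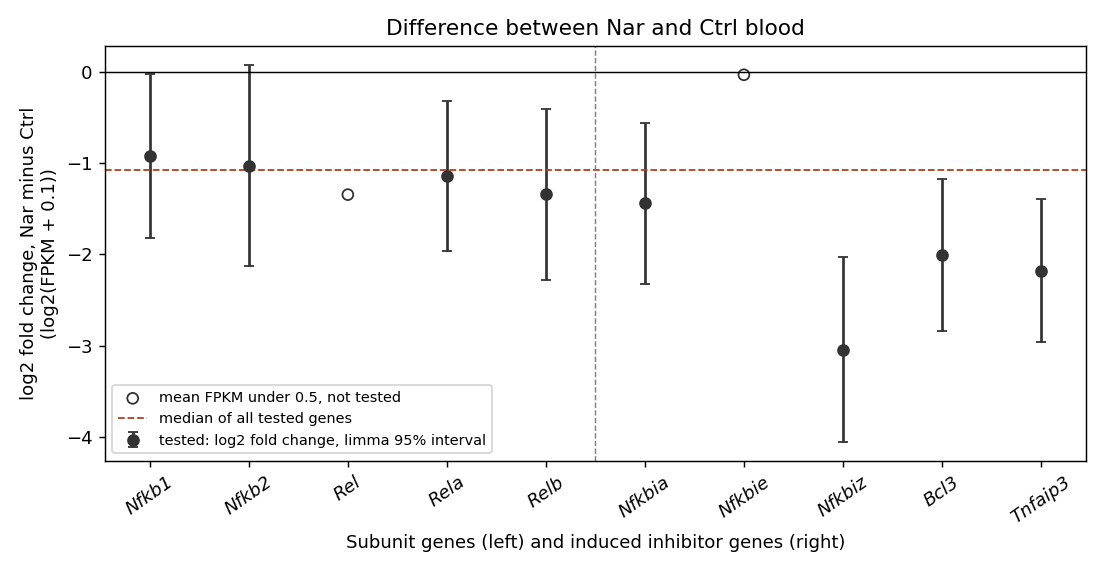
Log2 fold change (Nar minus Ctrl, on log2(FPKM + 0.1)) of each gene, with limma 95% intervals for the 8 tested genes (filled) and no interval for Rel and Nfkbie (open, mean FPKM under 0.5). The subunits lie around the dashed line at -1.07, the median of all tested genes, and Nfkbiz, Bcl3 and Tnfaip3 lie below it at -3.04, -2.01 and -2.18. Scaled to a leukocyte gene reference, the median of all tested genes is 0.42, and the values of Nfkb1, Nfkb2, Rela, Relb, Nfkbia and Nfkbie lie above 0.

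With 1 in place of 0.1 added to the FPKM, the log2 fold changes were -1.47 for Nfkbiz, -1.15 for Bcl3, -1.11 for Tnfaip3 and -0.56 for Relb, and each of them was still called in limma.

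The median log2 fold change of the 5 inhibitor genes was -2.01, against -1.14 for the 5 subunits. All 4 inhibitor genes that could be tested were called lower. Over both classes 6 (Rela, Relb, Nfkbia, Nfkbiz, Bcl3 and Tnfaip3) of the 8 tested genes were called lower and 0 higher, where 39.6% of all tested genes were called lower and 0.187% higher. Relb, Nfkbiz and Tnfaip3 reached the filter, a mean of 0.5 FPKM over all 4 libraries, only through the controls. Their control means were 0.935, 2.40 and 1.88 FPKM, and their Nar means 0.30, 0.18 and 0.335. Without the filter limma called 0 of the 10 members and 0 of 16382 genes, with 6 and 4978 at an unadjusted p under 0.05. The calls of the 6 genes also rest on all 4 libraries. In limma fits that left out 1 library, where the lone library of a group is assumed to vary like the others, 0 of the 8 passed without Ctrl 1 and 0 without Ctrl 3, with 6 and 7 at an unadjusted p under 0.05. The same held for every gene, since 0 of 5339 passed in either fit, with 2682 and 2133 at an unadjusted p under 0.05. Without Nar 1, where 259 genes passed, Nfkbiz, Bcl3 and Tnfaip3 were among them, and without Nar 3, where 213 passed, Nfkbiz and Tnfaip3.

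The order of levels also differed between the groups. In controls it ran Nfkbia, Rela, Bcl3, Nfkbiz, Nfkb1, Tnfaip3, Nfkb2, Relb, Rel, Nfkbie, from 4.31 to 0.345 mean FPKM. Neighbours from Bcl3 to Tnfaip3 overlapped in their control values, and so did neighbours from Nfkb2 to Nfkbie. In Nar-treated blood it ran Nfkbia, Rela, Nfkb1, Nfkb2, Bcl3, Tnfaip3, Nfkbie, Relb, Nfkbiz, Rel, from 1.52 to 0.165 mean FPKM. There Nfkb2 overlapped Bcl3, Nfkbie overlapped Tnfaip3 and Relb, and Nfkbiz overlapped Rel. By group means Nfkbia and Rela had the first and second place in both groups, although Nfkbiz was above Rela in Ctrl 1. Nfkbiz went from the fourth place to the ninth.

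A ratio of 2 genes within a library does not depend on how that library was scaled, apart from the added 0.1. The mean log2 level of the 5 inhibitor genes minus that of the 5 subunit genes was 0.39 and 0.47 in Ctrl 1 and Ctrl 3, against -0.30 and -0.01 in Nar 1 and Nar 3. By this mean the inhibitor genes were the higher class in both controls and not in either Nar library. The mean joins genes that differed, from -1.88 for Nfkbiz to 1.12 for Nfkbie against the subunit mean. The group means were 0.43 ± 0.05 (SD, n = 2) and -0.15 ± 0.20 (SD, n = 2), a difference of -0.58 on the log2 scale, which is larger than either spread. It stayed between -0.73 and -0.44 when any 1 library was left out, and was -0.40 with 1 in place of 0.1 added. The values of -0.58 with median-of-ratios scaling and -0.57 with a leukocyte reference add nothing, since scaling a library cancels in this score apart from the added 0.1. In summed FPKM, inhibitor genes made up 59.1% and 61.6% of the 10 genes in controls and 45.8% and 49.1% in Nar-treated blood. No p is given for this score, since the members were chosen as a class.

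The inhibitors did not move as 1 class in this measure. Of the 25 ratios of an inhibitor gene to a subunit gene, 17 were lower with Nar without overlap, 5 were higher without overlap and 3 overlapped. The 25 ratios share 10 genes and are not independent, and of the ratios of any 2 tested genes 44.3% did not overlap in either direction. Nfkbiz, Bcl3 and Tnfaip3 were lower against each of the 5 subunits, Nfkbia against Nfkb1 and Rela, and Nfkbie was higher against each of the 5. The smallest two-sided p that an exact permutation test of any one ratio allows here, with 2 libraries in each group, is 0.33.

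Against the mean of the subunits in the same library, Nfkbiz had log2 levels of 1.02 and 0.50 in Ctrl 1 and Ctrl 3, against -1.37 and -0.88 in Nar 1 and Nar 3. It went from above the subunits to below them, a difference of -1.88. Tnfaip3 had 0.36, 0.71, -0.72 and -0.26 in the same order, also crossing from above to below, a difference of -1.02. Bcl3 had 0.62, 1.15, 0.11 and -0.04, a difference of -0.85.

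Nfkbia differed least from the subunits, with log2 levels of 1.46 and 1.93 in Ctrl 1 and Ctrl 3, against 1.09 and 1.72 in Nar 1 and Nar 3 (a difference of -0.29). Its groups overlapped on this scale, and it stayed above the subunits in every library. Nfkbie had -1.49, -1.95, -0.59 and -0.60, below the subunits throughout and nearer to them in the Nar libraries, a difference of 1.12.

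**Figure D3:**
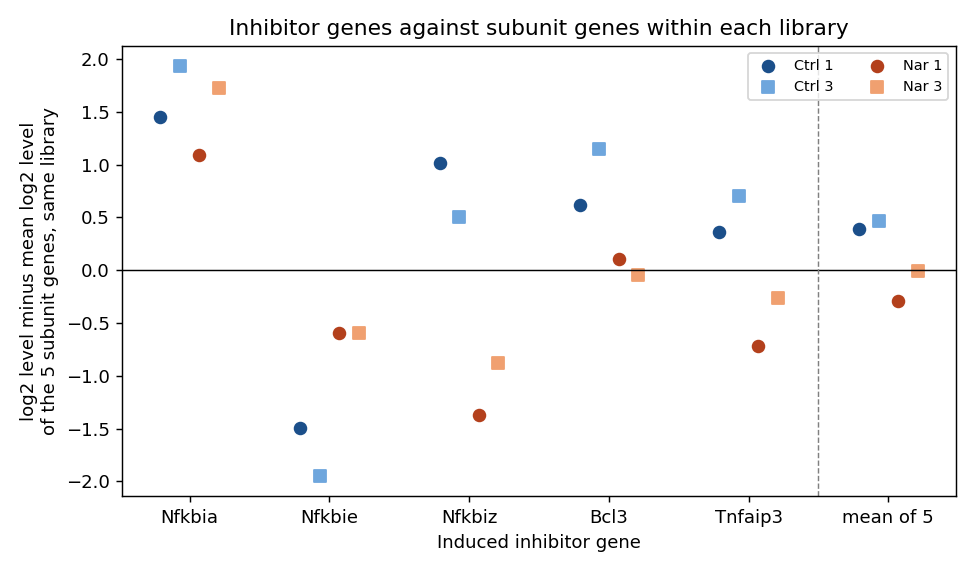
Log2 level of each inhibitor gene minus the mean log2 level of the 5 subunit genes in the same library, with the mean of the 5 inhibitors at the right. Nfkbiz, Bcl3 and Tnfaip3 lie lower in both Nar libraries than in both controls, Nfkbie lies higher, and Nfkbia overlaps.

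The scaling of the libraries bears on every single difference. Scaling by the median of ratios, under which a typical gene does not differ, moved the median log2 fold change of tested genes from -1.07 to -0.002. Under it limma called 0.599% of all genes lower, 0.187% higher and 0 of the 8 tested members, with 3 at an unadjusted p under 0.05. Nfkbiz then had a log2 fold change of -2.08 (limma adjusted p = 0.0815), Tnfaip3 -1.15 (0.153) and Bcl3 -0.94 (0.219). The subunits Rela (-0.03), Relb (-0.37) and Nfkb2 (-0.01) and the inhibitor Nfkbia (-0.31) came close to 0, and Nfkb1 turned to 0.16. Of the 2 genes below the limit for the test, the subunit Rel was at -0.54 and Nfkbie at 0.82. Leaving haemoglobin out and rescaling what remains called 5.01% of all genes lower and 0.263% higher, and of the members Nfkbiz (-2.61, limma adjusted p = 0.0108) and Tnfaip3 (-1.70, limma adjusted p = 0.0457) passed.

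The members were also set against 16 genes that most white cells express, among them Ptprc (CD45), Coro1a and Lcp1. All 16 were lower in both Nar libraries than in both controls, as were 78.3% of the 5339 tested genes. The median log2 fold change of the 16 was -1.48. Scaled to their median ratio, all tested genes had a median of 0.42. The subunits Nfkb1, Nfkb2, Rela and Relb were at 0.59, 0.40, 0.40 and 0.02, and the inhibitors Nfkbia and Nfkbie at 0.13 and 1.18. Nfkbiz, Tnfaip3 and Bcl3 were still below 0, at -1.69, -0.75 and -0.52, and so was the subunit Rel, which was not tested, at -0.20. None of the 8 passed in limma on this scale, 1 had an unadjusted p under 0.05, and limma called 0.150% of all tested genes lower and 0.281% higher.

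Marker genes of the blood cell types moved unequally, and their part in these results was not tested. All 12 neutrophil markers were called lower, beside 39.6% of all tested genes, with a median log2 fold change of -3.67 and a summed FPKM of 1439 to 1742 in controls and 105 to 165 in Nar-treated blood. Csf3r, the receptor for granulocyte colony-stimulating factor, had 37.1 and 22.9 FPKM in controls and 2.49 and 3.20 in Nar-treated blood (log2 fold change -3.32, limma adjusted p = 0.00510). Of 10 monocyte markers 6 were called lower, with a median of -1.66 and sums of 389 to 476 and 104 to 159 FPKM. Csf1r, the defining receptor of monocytes, had a log2 fold change of -1.41 and did not pass (limma adjusted p = 0.0654).

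Lymphocyte and red cell markers had log2 fold changes nearer 0 on the deposited scale. None of 10 B cell markers was called in limma (0 at an unadjusted p under 0.05, median -0.38, sums 31.0 to 42.6 and 31.2 to 31.9 FPKM), nor of the 9 T cell markers tested (3 at an unadjusted p under 0.05, median over 11 genes -0.53, sums 19.9 to 28.0 and 9.62 to 12.97 FPKM). Cd3e of T cells had a log2 fold change of 0.07 (limma adjusted p = 0.883), the highest of the 9 tested T cell markers. Their median was -0.72 and their lowest value -1.35. Of 7 tested markers of natural killer cells 3 were called lower (42.9%, beside 39.6% of all tested genes), with a median of -1.21 over 8 genes and sums of 23.1 to 23.9 and 5.53 to 11.3 FPKM. None of 9 platelet markers was called (1 at an unadjusted p under 0.05, median -1.04, sums 722 to 2305 and 474 to 642 FPKM), Pf4 having a limma adjusted p of 0.0709. None of 11 tested erythroid markers was called (0 at an unadjusted p under 0.05, median over 14 genes 0.31, sums 7071 to 8384 and 7581 to 7881 FPKM), and Alas2, the first enzyme of haem synthesis in red cells, had a log2 fold change of -0.004. With the white cell scale the medians over tested markers were 1.13 for B cells (9 of 10 at an unadjusted limma p under 0.05), 2.00 for erythroid cells (10 of 11) and -2.04 for neutrophils (12 of 12, with 2 called). No marker of these lists was at 0 in all 4 libraries.

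The rest of the pathway lay near the typical gene. Of 25 genes that carry the signal to NF-kappaB, 20 could be tested, 9 were called lower (45.0%, beside 39.6% of all tested genes) and 0 higher, and the median over all 25 was -1.23. The lowest were Card9, an adaptor of fungal receptors in myeloid cells (log2 fold change -2.46, limma adjusted p = 0.0111), Myd88, the adaptor of Toll-like and interleukin-1 receptors (-2.21, 0.00683), and Ripk1, the kinase at the tumour necrosis factor receptor (-1.92, 0.0140). Myd88 had 4.66 and 4.44 FPKM in controls and 0.94 and 0.87 in Nar-treated blood, so the groups were far apart. Among the highest were Irak1, a kinase below Myd88 (-0.58), and Tab3, a partner of the kinase TAK1 (0.04), with limma adjusted p of 0.222 and 0.936.

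Of 17 other genes that restrain the pathway, 12 could be tested and 6 were called lower and 0 higher, with a median of -1.03 over all 17. The lowest were Nfkbid, a nuclear IkappaB protein (-1.73, limma adjusted p = 0.0279), Irak3, a decoy kinase of Toll-like receptor signalling (-1.51, 0.0192), and Nfkbib, which encodes IkappaB-beta (-1.44, 0.0201). The highest were Cyld, a deubiquitinase (-0.97), and Rnf11 and Tax1bp1, partners of A20 (-0.18 and 0.18), with limma adjusted p of 0.0733, 0.770 and 0.763. Tax1bp1 had 20.9 and 32.9 FPKM in controls and 34.1 and 26.0 in Nar-treated blood, and Rnf11 59.3 to 105 over the 4 libraries, both many times the level of Tnfaip3. Of the 42 pathway genes 15 of 32 tested were called lower (46.9%), against 39.6% of all tested genes. Without Ctrl 1, Ctrl 3 or Nar 3 limma called 0 of them, and without Nar 1 it called 1, with 10 to 17 at an unadjusted p under 0.05, in fits that called 0, 0, 213 and 259 of all 5339 genes.

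Known target genes of NF-kappaB other than the 10 ranged in log2 fold change from -5.24 to 0.12. Of 30 genes 16 could be tested, 12 were called lower (39.6% of all tested genes) and 0 higher (0.187%), and the median over all 30 was -1.31. Cxcl2, a chemokine for neutrophils, had 13.4 and 10.5 FPKM in controls and 0.12 and 0.36 in Nar-treated blood (log2 fold change -5.24, limma adjusted p = 0.00238). Il1b, the cytokine interleukin-1 beta, had a log2 fold change of -4.22 (limma adjusted p = 0.00247), and Ier3, an early response gene, one of -2.94 (0.00448). After median-of-ratios scaling Cxcl2 (-4.22, limma adjusted p = 0.00911) and Il1b (-3.10, 0.0153) were the 2 target genes called. The highest were Icam1, an adhesion molecule of the vessel wall and white cells (-0.98), Sod2, the mitochondrial superoxide dismutase (0.05), and Bcl2l1, which encodes the survival protein BCL-XL (0.12), none of them called (limma adjusted p = 0.0644, 0.912 and 0.858). Without Ctrl 1 or Ctrl 3, 0 of the 16 passed, with 10 and 11 at an unadjusted limma p under 0.05, and without Nar 1 or Nar 3 it was 5 and 4, in fits that called 0, 0, 259 and 213 of all 5339 genes.

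**Figure D4:**
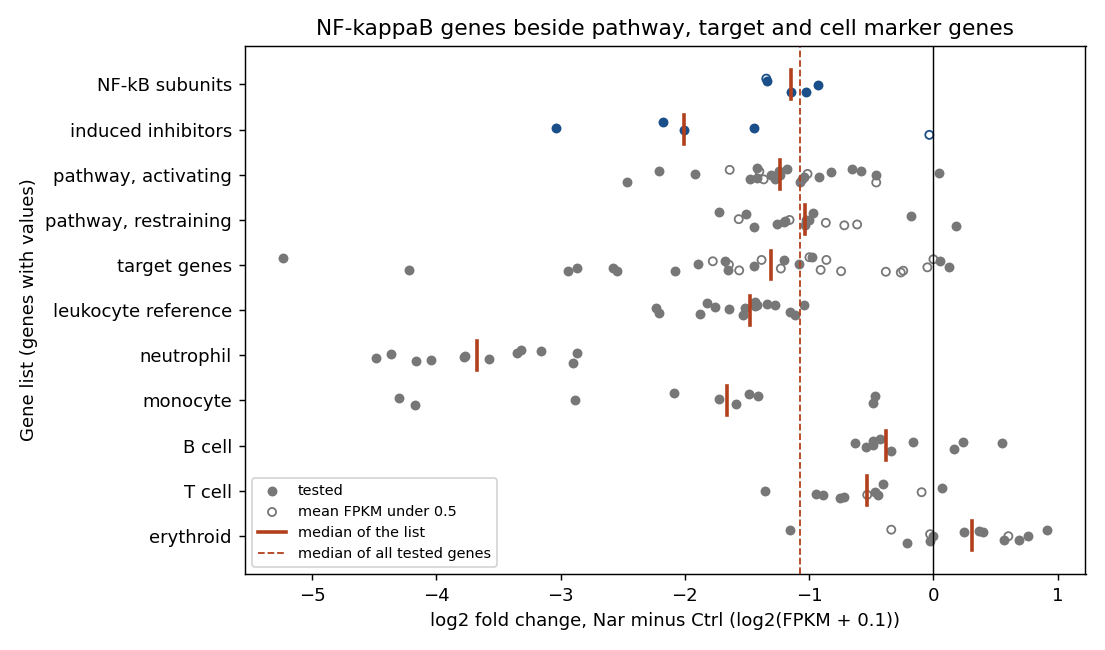
Log2 fold changes (Nar minus Ctrl, on log2(FPKM + 0.1)) of the subunit and inhibitor genes (blue) beside the pathway, target and cell marker lists (grey), with filled points for tested genes, open points for genes with a mean FPKM under 0.5 and a red bar at the median of each list. The medians are -1.14 for the subunits and -2.01 for the inhibitors, -1.48 for the leukocyte reference, -3.67 for neutrophil markers and 0.31 for erythroid markers. With the leukocyte reference as the scale the subunit median is 0.40, that of the inhibitors -0.52 and that of all tested genes 0.42.

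The control libraries differed from each other in one direction for these genes. Ctrl 1 was above Ctrl 3 in all 10, by 1.11 times for Bcl3 to 2.83 times for Nfkbie, while it was above in 42.9% of all tested genes and 48.4% of genes with a value above 0. Between the Nar libraries, Nar 1 was the higher in 6 genes, Nar 3 in 3, and Nfkbiz was equal. The median log2 difference of the 10 genes was largest between Nar 3 and Ctrl 1 (-1.91) and smallest between Nar 1 and Ctrl 3 (-0.99), where all tested genes had medians of -1.07 and -1.05. For the inhibitors alone the 4 pairings of a Nar and a control library gave medians from -2.36 to -1.62, and for the subunits from -1.77 to -0.52.

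The mean profile of the 8 tested members over the 4 libraries, each gene taken relative to its own mean on the log2 scale, was 1.09 and 0.55 in Ctrl 1 and Ctrl 3, against -0.70 and -0.94 in Nar 1 and Nar 3. Of the other tested genes, the 5 nearest to it by Euclidean distance were Rnf130, Nckap1l, Rab3d, Kansl1 and Stxbp3, at distances of 0.0417 to 0.0870. Nckap1l encodes HEM1, an actin regulator of blood cells, and had 5.40 and 3.68 FPKM in controls and 1.46 and 1.28 in Nar-treated blood. Likeness over 4 libraries is a description only.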

How the data were processed

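Blood RNA-seq of 4 libraries (2 Nar, 2 Ctrl) was used, grouped by the sample titles. The authors deposited FPKM values rounded to 2 decimals. The labels name TopHat2, Cufflinks and GRCm38 without roles or versions, while the methods name bowtie-2 and, for differential genes, DEGseq, which needs read numbers. Each of the 4 columns was matched to 1 library by title, and 0 were left over. Of 23136 genes listed, 17823 had values.

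Log2(FPKM + 0.1) of the 5339 genes whose mean FPKM reached 0.5 was tested with limma 3.58.1 in R 4.3.3 (lmFit, eBayes with trend) and Benjamini-Hochberg adjustment over all of them. Every adjusted p is from limma. The steps were tested on simulated data in which the typical gene did not differ between groups, so that test does not cover the shift seen here. The genes and lists were chosen with earlier results of these data known. Besides the 10 genes, the 3 lowest and 3 highest tested genes of each pathway or target list, defining cell markers and the 5 genes nearest in profile are named, apart from 2 genes of these lists that are not reported here. Alternatives were other pseudocounts (1, 0.01), no filter, a filter at a mean of 5, TPM, haemoglobin removal, median-of-ratios and leukocyte reference scaling, no trend, a replicate block and each library left out. Promoters came from RefSeq (GRCm38.p6). Python 3.11.15 with matplotlib 3.10.9 drew the plots.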

Additional observations from a re-analysis of the deposited data

How the results depend on the processing

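The number of calls depended on the scale, the filter and the number of libraries, and beyond the genes or libraries that a setting removes, the cause was not tested. Calls with all libraries numbered 2123 of 5339 genes (3036 at an unadjusted p under 0.05), 6 members, 15 pathway genes and 12 target genes. With median-of-ratios scaling they were 42 genes (32 lower, 10 higher), 0 members, 0 pathway genes and 2 targets. With the leukocyte reference they were 23 genes (8 lower, 15 higher), 0, 0 and 1, with 5 pathway genes at an unadjusted p under 0.05 on either scale. With haemoglobin removed they were 281 genes, 2, 1 and 6. Without the filter they were 0 of 16382 genes, 0 of 10 members, 0 and 0 (4978, 6, 23 and 20 at an unadjusted limma p under 0.05), and with the filter at a mean FPKM of 5, which no member reaches, 117 genes, 0, 0 of 5 and 4.

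The subunit median log2 fold change was -0.56 with a pseudocount of 1, -0.62 with haemoglobin removed, -0.031 with median-of-ratios scaling and 0.40 with the leukocyte reference, where the median of all tested genes moved from -1.07 to -0.56, -0.002 and 0.42 under the last 3. The inhibitor median was -1.11 with a pseudocount of 1, -1.51 with haemoglobin removed, -0.94 with median-of-ratios scaling and -0.52 with the leukocyte reference. The balance of inhibitors and subunits was -0.40 with a pseudocount of 1. Single genes reversed were Nfkb1 with median-of-ratios scaling (0.16), and with the leukocyte reference Nfkb1 (0.59), Nfkb2 (0.40), Rela (0.40), Relb (0.021) and Nfkbia (0.13). Nfkbie, not tested, was at 0.35 with haemoglobin removed, 0.82 with median-of-ratios scaling and 1.18 with the leukocyte reference.

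Leaving out 1 library gave 0 to 259 genes, 0 to 3 members, 0 to 1 pathway genes and 0 to 5 targets called, a subunit median of -1.45 to -0.93, an inhibitor median of -2.19 to -1.68 and a balance of -0.73 to -0.44.

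The groups share the numbers 1 and 3, and same-numbered libraries did not deviate together (correlation -0.153 across tested genes). With 2 libraries in each group this cannot tell whether the numbers pair them. With the replicate block 1815 genes, 5 members (without Rela, adjusted p = 0.0720), 14 pathway genes and 10 targets were called. The crossed replicate block, chosen after seeing the data, gave 3233 genes, 7 members, 21 and 13. Pseudocounts of 1 and 0.01, TPM and the fit without trend left 6 members called in each case. These fits called 1833, 2059, 2261 and 1790 of all 5339 genes. Depth is unknown.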
